A study of Cunninghamia lanceolata with 3 samples.

Results

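The wall of a growing plant cell is a network of cellulose fibrils tied together by hemicelluloses, and 2 enzyme families that act on this network are described here over the yearly cycle of a conifer cambium. Xyloglucan endotransglucosylases/hydrolases (XTH) cut a xyloglucan chain and join the new end to another chain, so that the tethers between fibrils can be re-made. Endo-1,4-glucanases, also called cellulases of family GH9 in plants, cleave 1,4-linked glucan chains, and their expression is known from tissues that expand or that shed organs. The vascular cambium, the layer of dividing cells between wood and bark, rests in winter and lays down new cells with extensible primary walls when it resumes growth.

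The members were the unigenes (assembled transcript sequences) whose best protein hit was named as an XTH (xyloglucan endotransglucosylase or endotransglycosylase) or as an endo-1,4-glucanase (in its spellings, endoglucanase or korrigan). Of 53590 unigenes with a read, 26 matched these names, and the 10 with the most reads over all libraries are described as the members. They are 6 XTH unigenes and 4 glucanase unigenes. Because they were picked on their total reads, their overall abundance is a description and not a result, and a unigene could enter the set through a single library in which it was high. Unigene45005 with 262 reads was the last inside the limit and Unigene17459 with 258 reads the first outside it. Names were taken whatever the strength of the hit. By E-value (hits as good expected by chance), the weakest members were Unigene55468 at 3.5e-17 and Unigene47961 at 4.5e-18. Outside the members, Unigene11388 at 9.6e-08 and Unigene2754 at 3.1e-11 were weaker still, so these names are less sure.

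The series holds 3 RNA-seq libraries of Cunninghamia lanceolata (Chinese fir), 1 from dormant, 1 from reactivating and 1 from active vascular cambium. All came from trees aged about 16 years, 15 m in height and 12 cm in diameter, under natural conditions, and the tissue was collected in tangential cryosections. The title of the dormant sample holds the word growing beside dormant, as does that of the reactivating sample beside its own stage, and the stage was taken from the separate stage label. How many trees entered each library and on which dates is not stated in the labels. Depth was nearly equal, between 5.84 and 5.85 M uniquely mapped reads for each library. Where several values follow each other without a name, they are given in the order dormant, reactivating, active. As each stage has 1 library, the spread between replicates is unknown and no test between stages was possible. Each ratio below describes a pair of libraries, and the 95% range that follows it in parentheses covers read counting only.

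The tissue label was set against marker names. Class III homeodomain-leucine zipper protein C3HDZ1 (Unigene59489), of a family that patterns vascular tissue and the cambium, had 257, 2850 and 4027 reads, and of 50 unigenes named as cambium and meristem regulators 47 to 49 were detected in each library. Their summed RPKM (reads scaled to the length of the unigene and to the library total) was 1881, 2740 and 3507. The 32 unigenes for dividing cells, whose names hold cyclin, kinesin, histone H3 or histone H4, summed to 332, 772 and 729 RPKM. Of them, 9 were at 0 reads in the dormant library. A single kinesin heavy chain (Unigene14442) held 419, 1531 and 2081 of their 1034, 3646 and 3973 reads. The 32 for differentiating xylem, led by laccases, summed to 1396, 677 and 4331 RPKM, with 7, 4 and 0 at 0 reads. The 12 for dormancy and cold summed to 10387, 422 and 365 RPKM. The 3 phloem unigenes, all sucrose transporters, summed to 133, 28.9 and 34.2 RPKM, the 18 for resin and bark to 115, 114 and 32.0, and the 24 for photosynthetic tissue to 136, 96.0 and 80.8. The unigenes listed for dividing cells thus stood low, as a sum, in the same library as most members. The part of these marker shifts in the values below was not tested. In whole tissue, fewer cells of a type and less RNA per cell cannot be told apart.

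The glucanase members were scarce in the dormant library and abundant in both others. Each of the 4 stood 10-fold or more above its dormant level at reactivation, a size that 2.76% of all measured unigenes passed upward, and their summed reads went from 46 in the dormant to 3969 in the reactivating and then to 5775 in the active library. The XTH members were a mixed group: 2 of the 6 were likewise scarce in dormancy, whereas the other 4 were already well expressed there and differed by less than 3-fold between the dormant and the reactivating library. From the reactivating to the active library no member of either family passed 2-fold, where 6.76% of all measured unigenes did so upward and 5.14% downward.

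**Figure D1:**
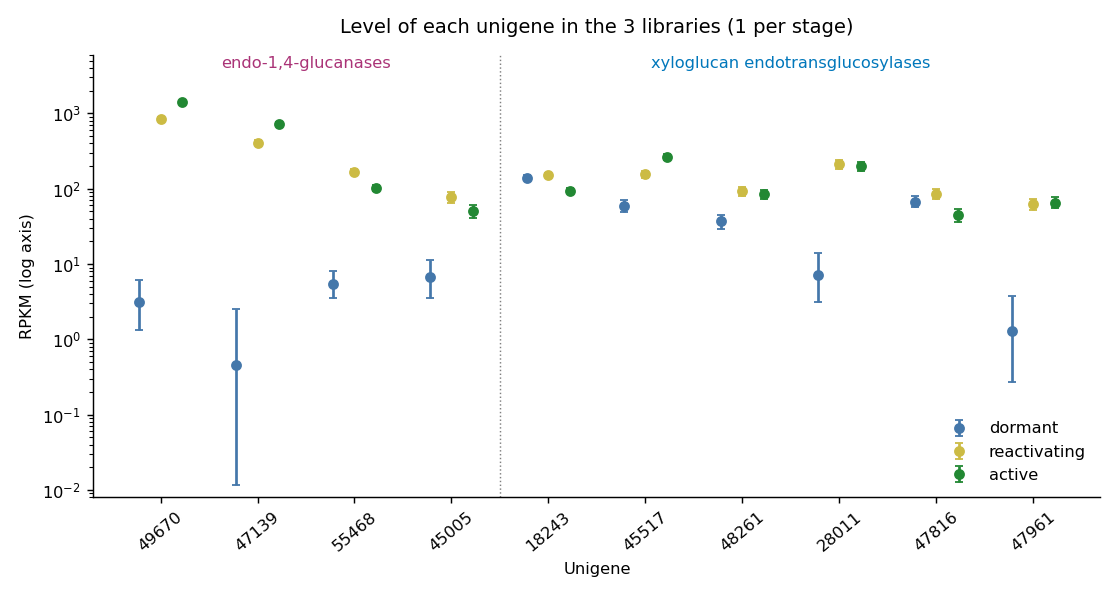
RPKM on a log axis for each of the 10 members (horizontal axis, unigene number) in the dormant, reactivating and active library, 1 library each. Bars are 95% exact Poisson intervals of the reads. The glucanase members lie between 0.457 and 6.67 RPKM in the dormant library and at 50.4 or more in both others, and the XTH members span 1.31 to 141 RPKM in the dormant library.

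The most abundant member was Unigene49670, an endo-beta-1,4-glucanase by its hit in the pine Pinus radiata. It had 8 reads in dormancy, 2181 at reactivation and 3651 in the active stage, which corresponds to 3.13, 853 and 1430 RPKM. The dormant library was thus low by itself, and the active library was the highest, with no overlap between the counting intervals. Its level was 273-fold higher (138 to 632) in the reactivating than in the dormant library and a further 1.68-fold higher (1.59 to 1.77) in the active than in the reactivating library. By RPKM this unigene ranked 39066 among all unigenes of the dormant library, 126 in the reactivating library and 40 in the active library.

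Unigene47139 had the same best hit in Pinus radiata. It had 1, 900 and 1576 reads, or 0.457, 411 and 721 RPKM. The single dormant read leaves the ratio of the reactivating to the dormant library, 900, very loosely bounded (161 to 35580), while the active library was 1.75-fold higher (1.61 to 1.90) than the reactivating one. Its order of libraries was that of Unigene49670.

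The 2 pine-like glucanases stood in nearly the same proportion to each other in the reactivating and active libraries. Per length, Unigene49670 was 2.07 times as high as Unigene47139 (1.92 to 2.24) in the reactivating library and 1.98 times (1.87 to 2.10) in the active library. The dormant reads gave a ratio of 6.85 (0.918 to 304), too loose to compare. Another unigene with this hit, Unigene15554, outside the 10, had 0, 1 and 5 reads. Lengths of 437 and 374 bases are short for a glucanase transcript, and whether both are pieces of 1 transcript or copies of a gene was not tested, since no unigene sequence was used here.

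The other glucanases peaked in the reactivating library. Unigene55468, with a best hit to an endo-1,4-beta-glucanase of persimmon (Diospyros kaki), had 24, 737 and 450 reads, or 5.51, 169 and 103 RPKM. It was 30.7-fold higher (20.5 to 48.2) in the reactivating than in the dormant library and 1.64-fold lower (1.45 to 1.84) in the active than in the reactivating library. Unigene45005, whose best hit is an endo-beta-1,4-glucanase of peach (Prunus persica), had 13, 151 and 98 reads, or 6.67, 77.5 and 50.4 RPKM. It was 11.6-fold higher (6.59 to 22.3) in the reactivating than in the dormant library and 1.54-fold lower (1.19 to 2.01) in the active library than in the reactivating one.

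The glucanase reads were also summed over the pine-like pair and over the remaining pair. Since these pairs were formed after the values of each member were seen, the opposite direction of their last step follows from the choice. Between reactivation and activity the pine-like pair went from 3081 to 5227 summed reads and the remaining pair from 888 to 548. In the dormant library the pairs had 9 and 37 reads. The pine-like pair thus took 83.7% of the summed glucanase RPKM in the reactivating library and 93.3% in the active library, against 22.7% in the dormant one.

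Among the XTH members, 2 behaved like the glucanases in the dormant library. Unigene28011, a short unigene of 191 bases that hits xyloglucan endotransglycosylase hydrolase 1 of Medicago truncatula, had 8, 236 and 222 reads, or 7.16, 211 and 199 RPKM. It was 29.5-fold higher (14.7 to 69.1) in the reactivating than in the dormant library, and the active library did not differ from the reactivating one beyond counting error, at 1.06-fold lower (0.880 to 1.28). Unigene47961, with a hit in cotton (Gossypium hirsutum), had 3, 144 and 150 reads, or 1.31, 62.8 and 65.5 RPKM. Its ratio of the reactivating to the dormant library was 48.0 (16.1 to 235), and that of the active to the reactivating library 1.04 (0.824 to 1.32).

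A pair of XTH members stood at an intermediate position, present in dormancy and more abundant later. Unigene45517, which hits XTH protein 2 of castor bean (Ricinus communis), had 118, 312 and 525 reads, or 59.0, 156 and 263 RPKM. It was 2.64-fold higher (2.13 to 3.30) in the reactivating than in the dormant library and 1.68-fold higher (1.46 to 1.94) in the active than in the reactivating library. Unigene48261, which hits XTH protein A of castor bean, had 86, 216 and 197 reads, or 36.9, 92.5 and 84.5 RPKM. It was 2.51-fold higher (1.95 to 3.26) in the reactivating than in the dormant library, and the active library was 1.10-fold lower (0.899 to 1.34) than the reactivating one, within counting error.

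The remaining XTH members differed little between dormancy and reactivation and were lowest in the active library. Unigene18243 also hits XTH protein A of castor bean, is the longest member at 1147 bases, and had 945, 1019 and 630 reads, or 141, 152 and 94.0 RPKM. The reactivating library was 1.08-fold higher (0.986 to 1.18) than the dormant one, an interval that includes 1, and the active library was 1.62-fold lower (1.46 to 1.79) than the reactivating one. Unigene47816, with a hit in dahlia (Dahlia pinnata), had 153, 194 and 102 reads, or 67.4, 85.5 and 45.0 RPKM. It was 1.27-fold higher (1.02 to 1.58) in the reactivating than in the dormant library and 1.90-fold lower (1.49 to 2.44) in the active than in the reactivating library. Against the dormant library, the active library was 1.50-fold lower for Unigene18243 (1.35 to 1.66) and 1.50-fold lower for Unigene47816 (1.16 to 1.94).

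Unigene18243 and Unigene48261 share 1 best hit but not 1 pattern. Per length, Unigene18243 was 3.82 times as high as Unigene48261 in the dormant library (3.06 to 4.82), 1.64 times in the reactivating library (1.42 to 1.91) and 1.11 times in the active library (0.947 to 1.31). These ranges do not overlap, in contrast to the near-constant proportion of the pine-like glucanases in the reactivating and active libraries.

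Counted over the members, 8 of 10 passed 2-fold upward from the dormant to the reactivating library and 0 downward. Of all 36274 unigenes with at least 20 reads in this pair of libraries, 16.9% were at least 2-fold higher and 13.8% lower. The members were kept for their total reads, a choice not made for all unigenes, so the 2 sets are not alike in selection. Of the 19 matching unigenes measured, members included, 12 were higher and 3 lower. At 10-fold the count of members was 6 of 10, where 2.76% of all unigenes passed. The median log2 ratio of the members was 4.21, beside 0.07 over all unigenes measured. For the active against the dormant library, which uses the same dormant library, 8 of 10 passed 2-fold upward and 0 downward, with 18.1% and 13.8% of 36288 unigenes passing in each direction. There 5 members passed 10-fold, as did 3.23% of all unigenes, and the median log2 ratio was 3.57 beside 0.01. The highest ratio of active to dormant was that of Unigene47139, 1578 (283 to 62347), which rests on 1 dormant read, followed by 457 (232 to 1059) for Unigene49670. Among members with at least 10 dormant reads the highest was 18.8 (12.5 to 29.6) for Unigene55468.

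From the reactivating to the active library, 0 members were at least 2-fold higher and 0 lower, beside the 6.76% and 5.14% of 36079 measured unigenes given above. The median log2 ratio was -0.11 for the members and -0.06 for all unigenes. Smaller shifts were still resolved by the counts. The counting interval lay wholly above 1 for 3 members, namely Unigene49670, Unigene47139 and Unigene45517, and wholly below 1 for 4, namely Unigene18243, Unigene55468, Unigene47816 and Unigene45005. Over all unigenes 15.6% lay wholly above and 19.9% wholly below 1. The members that spanned 1 were Unigene48261, Unigene28011 and Unigene47961.

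**Figure D2:**
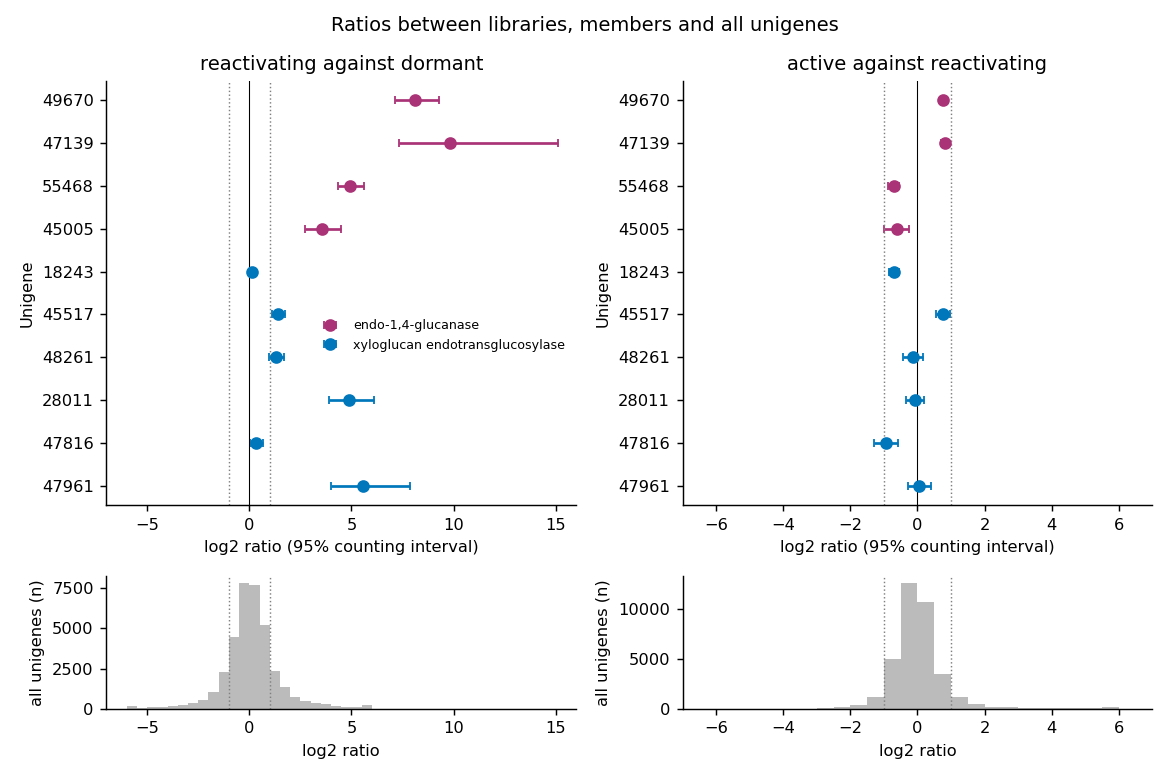
Upper panels show the log2 ratio of each member with its 95% counting interval, for the reactivating against the dormant library (left) and the active against the reactivating library (right). Dotted lines mark 2-fold, and the lower panels count all measured unigenes by log2 ratio, with values beyond 6 placed in the outermost bars. In the left panel 8 of 10 members lie beyond 2-fold higher, and in the right panel 0 lie beyond 2-fold on either side.

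The summed level of both families changed its make-up with the stage. The 10 members took 0.0232% of the dormant reads (exact binomial 95% interval 0.0220 to 0.0245), 0.104% of the reactivating reads (0.102 to 0.107) and 0.130% of the active reads (0.127 to 0.133). Their summed RPKM was 328, 2271 and 3055. XTH members made up 95.2% of that sum in the dormant library, 33.5% in the reactivating library and 24.6% in the active library, and the glucanases the rest. In absolute terms the XTH sum was 313, 760 and 751 RPKM, and the glucanase sum 15.8, 1511 and 2305 RPKM.

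A single unigene carried much of the increase. Unigene49670 took 0.953%, 37.6% and 46.8% of the members' summed RPKM. The summed reads of the 10 members were 4.48-fold higher (4.22 to 4.76) in the reactivating than in the dormant library, and 2.89-fold higher (2.72 to 3.08) without Unigene49670. From the reactivating to the active library the sum was 1.25-fold higher (1.21 to 1.29), and without Unigene49670 the ratio was 1.01 (0.968 to 1.06). By RPKM, Unigene18243 led the XTH members in the dormant library, with 45.1% of the XTH sum. The lead by RPKM then passed to Unigene28011 with 27.8% in the reactivating library and Unigene45517 with 35.0% in the active library. By reads Unigene18243 led the XTH members in all 3 libraries, with 945, 1019 and 630. The change of lead thus rests on division by length, which was 1147 bases for Unigene18243, 191 for Unigene28011 and 342 for Unigene45517.

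**Figure D3:**
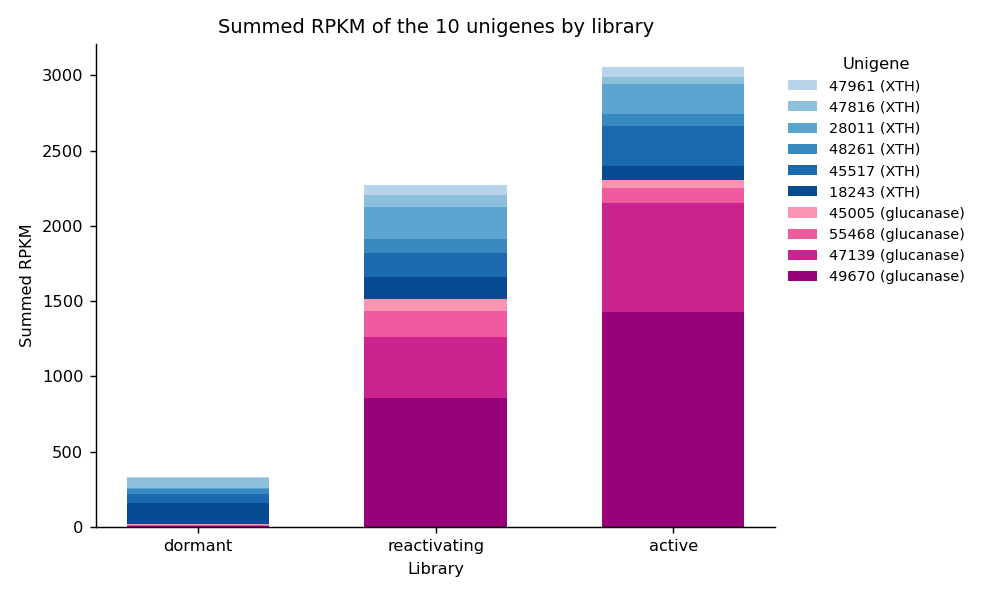
Stacked bars of RPKM, from 0, for the 10 members in each of the 3 libraries, with glucanases in purple to pink and XTH unigenes in blue. The totals of the bars are 328, 2271 and 3055 in the order of the stages, and glucanases fill 66.5% of the reactivating and 75.4% of the active bar.

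The 16 matching unigenes outside the members had fewer reads and no common direction. Of the 9 with at least 20 reads in the dormant and reactivating pair, 4 passed 2-fold upward at reactivation and 3 downward, and their median log2 ratio was 0.97. Over all measured unigenes these shares were 16.9% and 13.8%. Between the reactivating and the active library 1 of 9 was higher and 2 were lower, beside 6.76% and 5.14% of all measured unigenes. The 7 others had at most 9 reads in all, among them Unigene12805, which hits a xyloglucan-specific endoglucanase inhibitor protein and so is neither enzyme.

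The 4 higher ones were all glucanases. Unigene17459, at 1615 bases the longest matching unigene, hits an endo-beta-1,4-glucanase of strawberry (Fragaria x ananassa). Its counts of 11, 76 and 171 reads were 6.91-fold higher (3.65 to 14.4) at the first step and 2.25-fold higher (1.71 to 2.99) at the second. Unigene54362, a hit to endoglucanase 8 of Arabidopsis thaliana, had 0, 90 and 91 reads. Set against a floor of 3 dormant reads (0.788 RPKM), its reactivating level was 30.0-fold higher. The counting interval, taken from the reads without the floor, ran from 23.9 upward. Unigene54710, another putative glucanase, had 0, 51 and 58 reads. It was 17.0-fold higher at reactivation on the same floor, with a counting interval from 13.3 upward. The last, Unigene42262, chosen after its values were seen, hits a tomato glucanase and had 4, 42 and 39 reads, 10.5-fold higher (3.81 to 40.3) at the first step.

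Some matching unigenes were highest in dormancy. The glucanase Unigene13948, with a hit in longan (Dimocarpus longan), had 69, 16 and 15 reads, 4.31-fold lower (2.48 to 7.96) at the first step. A glucanase with fewer reads, Unigene18693, chosen after its values were seen, had 64, 11 and 11 reads, 5.82-fold lower (3.04 to 12.2). The XTH Unigene11388, named for XTH7 of tomato, had 117, 53 and 33 reads, 2.21-fold lower (1.58 to 3.12). A further pair of XTH unigenes was lower at the last step only. Unigene2754 had 45, 88 and 29 reads, 3.03-fold lower (1.97 to 4.78) in the active than in the reactivating library, and Unigene15391 had 59, 50 and 13 reads, 3.84-fold lower (2.06 to 7.71). Neither passed 2-fold between the dormant and the reactivating library. Glucanase unigenes thus stood on both sides in dormancy, and the low dormant level of the 4 glucanase members did not extend to every glucanase measured.

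**Figure D4:**
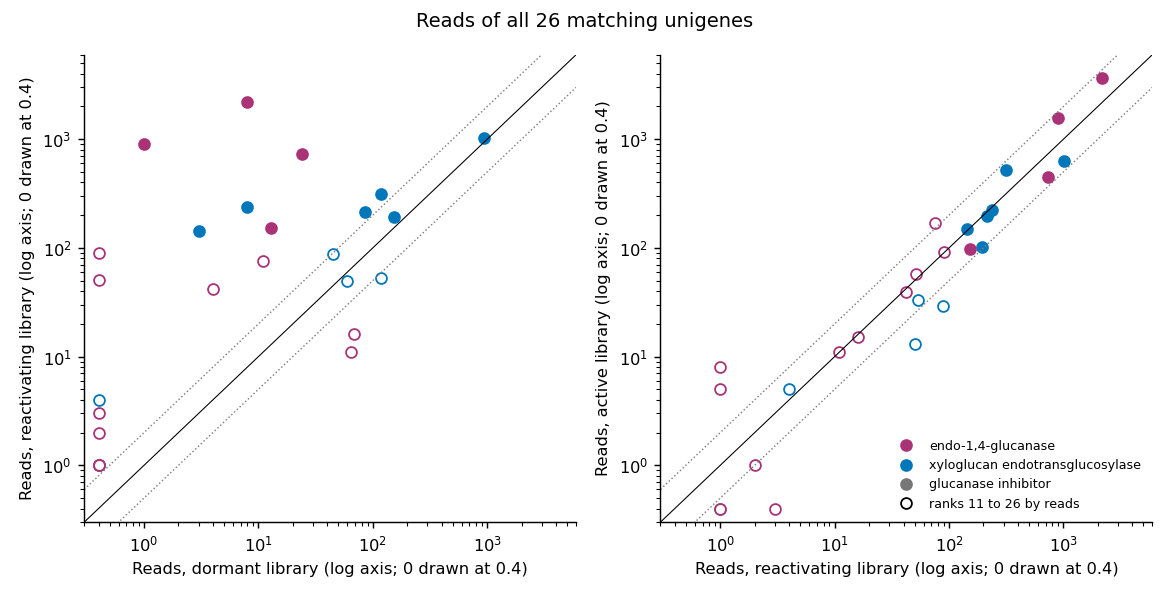
Reads of each of the 26 matching unigenes in the reactivating against the dormant library (left) and the active against the reactivating library (right), on log axes with 0 drawn at 0.4. Filled points are the 10 members and open points the other 16, the solid line marks equal reads and dotted lines 2-fold, and some points at 0 and 1 reads lie on top of each other. Most filled points lie above the upper dotted line on the left, and all lie between the dotted lines on the right.

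Some members shared annotations, and no process term was given to more than 3 of the 10. These terms did not enter the choice, but members with the same best hit carried identical terms. The terms are thus not shown to be independent of the names. By the deposited gene ontology terms, Unigene49670 and Unigene47139 carry the term glucan catabolic process. Of all 53590 unigenes 5 carry it, while 40792 have no process term. Both members also carry multicellular organismal development, reproductive developmental process and response to other organism. Unigene45517, Unigene28011 and Unigene47816 carry glucan metabolic process, given to 24 unigenes in all, and the same 3 carry the component terms extracellular region and external encapsulating structure. Unigene45517 also carries cytoplasmic vesicle. The cell wall is the site where XTH enzymes are known to act. Most members are short: 8 of 10 are under 500 bases, shorter than a typical full-length transcript of either family.

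Other wall genes were set beside the members by name. For all these lists, the shares over all measured unigenes are 16.9% higher and 13.8% lower at reactivation. From the reactivating to the active library they are 6.76% and 5.14%. Expansins, which loosen walls without cutting a glycosidic bond, went both ways at counts near these shares. Of 14 measured expansins, 3 passed 2-fold upward at reactivation and 2 downward (median log2 ratio -0.28). Alpha-expansin 3 (Unigene57087) had 186, 1182 and 1619 reads, 6.35-fold higher (5.44 to 7.46) at the first step. The next expansin by total reads, an expansin-like protein (Unigene43320), had 501, 488 and 326 reads. The largest ratio of the list ran opposite to that of most members. Another expansin-like protein (Unigene53531) had 611, 2 and 63 reads, 306-fold lower (84.2 to 2529) in the reactivating than in the dormant library and then 31.5-fold higher (8.38 to 266) in the active library. At the last step 1 of 15 expansins was higher and 1 lower.

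Unigenes for the synthesis and trimming of xyloglucan, the substrate of XTH, had no common direction. Of 14 measured, 2 passed 2-fold upward at reactivation and 5 downward (median log2 ratio -0.30), and from the reactivating to the active library 3 of 14 were higher and 0 lower. An alpha-1,2-fucosyltransferase (Unigene59393), of the family that adds the fucose of xyloglucan side chains, had 343, 720 and 780 reads, 2.10-fold higher (1.84 to 2.39) at the first step. This value stood just past the limit, and the list had 1 higher with either alternative scaling. The xyloglucan galactosyltransferase (Unigene18768), chosen after its values were seen because its hit names the polymer, had 431, 150 and 153 reads, 2.87-fold lower (2.38 to 3.48) at the first step. The alpha-xylosidases, which trim xyloglucan chains from their end, split. Unigene47582 had 115, 439 and 351 reads, 3.82-fold higher (3.10 to 4.73), whereas Unigene34908 had 106, 0 and 26 reads. On the floor of 3 reads Unigene34908 was 35.3-fold lower at reactivation, with a counting interval from 28.2 upward. Part of this list, such as Beta-1,2-xylosyltransferase (Unigene58848) with 417, 442 and 473 reads, belongs to a family known for N-glycan synthesis and entered by its name alone.

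Beta-glucosidases, a family of which some members split short glucans, had 8 of 17 measured unigenes past 2-fold upward at reactivation and 2 downward (median log2 ratio 0.96), and at the last step 6 of 19 higher and 1 lower. The putative beta-glucosidase Unigene44670 had 59, 547 and 814 reads, 9.27-fold higher (7.08 to 12.3) at the first step. In the other direction Unigene4329 had 205, 0 and 24 reads. On the floor of 3 reads it was 68.3-fold lower at reactivation, with a counting interval from 55.1 upward. By name the list also holds enzymes of 1,3-linked glucan, among them its most abundant unigene, the glucan endo-1,3-beta-glucosidase Unigene7821, with 381, 989 and 843 reads. COBRA proteins, which are known to take part in the orientation of cellulose fibrils in Arabidopsis, had 4 unigenes, of which 2 passed 2-fold upward at reactivation and 0 downward. The most abundant, Unigene50880, had 235, 596 and 620 reads, 2.54-fold higher (2.18 to 2.96).

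Cellulose synthases, the source of the fibrils themselves, followed another course as a list over the 2 steps, with unigenes in both directions at reactivation. Of 33 measured, 10 were at least 2-fold higher and 17 lower in the reactivating than in the dormant library. Of 37 measured at the last step 20 were higher and 2 lower, where 0 of the 10 XTH and glucanase members passed. Between the active and the dormant library the direction was that of most members. There 33 of 35 cellulose synthases were higher and 2 lower, beside 8 of 10 members higher and 0 lower. Over all unigenes measured in that pair of libraries, 18.1% were higher and 13.8% lower. The cellulose synthase-like list had 3 of 6 higher and 1 lower at the first step and 3 of 6 higher and 1 lower at the last. One of its unigenes, a cellulose synthase-like C protein (Unigene2825), of the family that makes the xyloglucan backbone, had 27, 151 and 135 reads, 5.59-fold higher (3.69 to 8.76) at the first step. The most abundant of this list, cellulose synthase-like A2 (Unigene58288), had 174, 163 and 1095 reads. It was 1.07-fold lower (0.857 to 1.33) at the first step and 6.73-fold higher (5.70 to 7.98) at the last. Cellulose synthase-like A1 (Unigene38753) had 81, 37 and 359 reads, 2.19-fold lower (1.47 to 3.32) and then 9.71-fold higher (6.91 to 14.0). The differences between lists are descriptions of counts and were not tested.

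**Figure D5:**
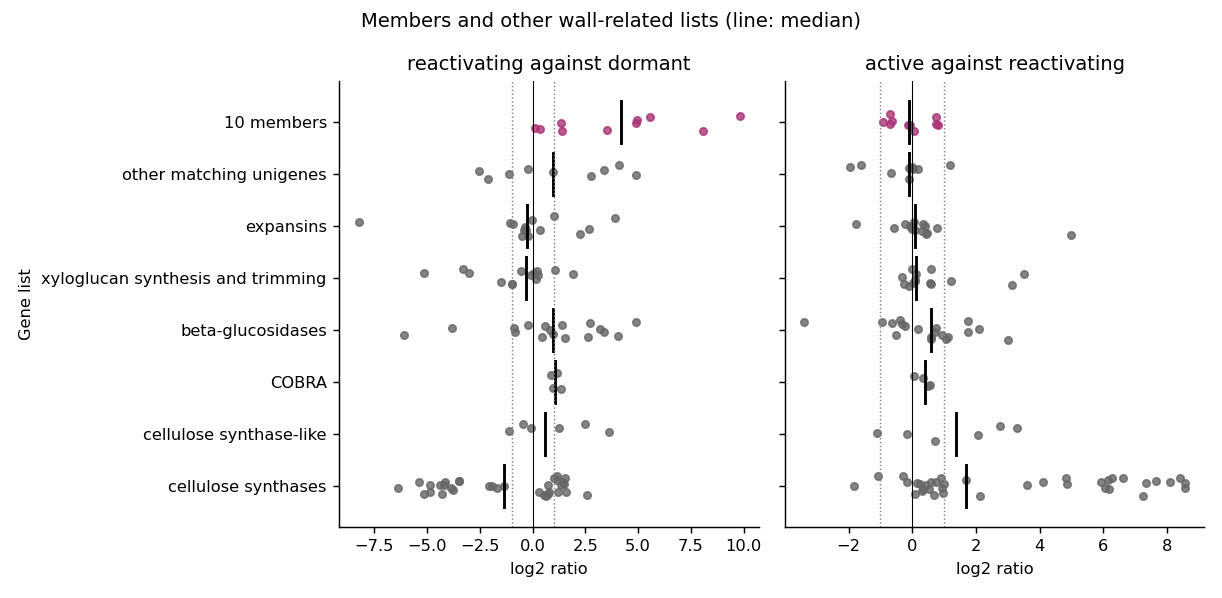
Log2 ratios of measured unigenes in each list (points), with the list's median as a vertical line, for the reactivating against the dormant library (left) and the active against the reactivating library (right). Dotted lines mark 2-fold. The members' median is 4.21 on the left and -0.11 on the right, while that of the cellulose synthases is -1.37 on the left and 1.67 on the right.

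The unigenes nearest in pattern were sought among 1401 annotated unigenes with at least 500 reads, by the Euclidean distance of centred log2(RPKM + 0.5) over the 3 libraries. For Unigene49670 the nearest were Auxin-induced protein 5NG4 (Unigene54524), at a distance of 0.52 with 1, 729 and 766 reads, and a putative beta-1,3-glucanase (Unigene57007), at 0.70 with 1, 1434 and 1241 reads. An actin (Unigene40842), at 1.32 with 4, 423 and 558 reads, and a sphingolipid delta 4 desaturase (Unigene57542), at 1.68 with 4, 628 and 535 reads, came next. For Unigene18243 the nearest was a putative NBS-LRR protein (Unigene53619), at 0.01 with 670, 713 and 442 reads, followed by ribosomal protein S7 (Unigene26382) at 0.03. With 3 points per unigene this is a weak measure, and the distance is given as a description only.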

How the data were processed

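The deposited tables give, per the file headers, the count of uniquely mapped reads per unigene, its length, the percent of that length covered by reads (deposited as a percent), the RPKM and the best protein hit. The counts are raw whole numbers. The RPKM deposited by the authors equalled the count divided by length and by library total, to a relative tolerance of 1e-06. Not given in the sources used here are the assembler, the mapper and the handling of reads shared by close copies, so values of near-identical family members are uncertain. The deposited unigene identifiers carried the ending seedling_RNA, which was dropped here, and from which tissue the unigenes were assembled was not checked. Unigenes that a table does not list count as 0 reads. Ratios are of RPKM, with an exact 95% interval from the reads (Clopper-Pearson, scipy 1.17.1) that covers counting error only. PCR copies are not independent molecules. Measured unigenes had 20 or more reads in the pair compared, were called at 2-fold, and a 0 was set to 3 reads. The interval was tried on simulated Poisson counts. These hold no spread between libraries, so the trial checks the calculation only and not the spread between real samples. Scaling alternatives used edgeR 4.0.16 and DESeq2 1.42.0 factors without a model.

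Members and lists were chosen with earlier results of these data known. All members are named, together with the other matching unigenes with at least 100 reads. From each list the text gives a part of the most abundant unigenes and of those with the largest ratios. The sum without Unigene49670 and the pairs of glucanases were chosen after seeing the data.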

Additional observations from a re-analysis of the deposited data

How the results depend on the processing

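The counts of members past 2-fold stayed within 1.5 times under both scalings, no minimum or a minimum of 100 reads, a 4-fold limit, intervals wholly beyond 2-fold, 1 read added, reads summed by best hit, and the 10 with most reads per kilobase. With unigenes of at least 500 bases, 2 members were left, and 1 was higher than in dormancy, both for reactivating and for active. With all matching unigenes, 19 were measured. Of these, 12 were higher for reactivating against dormant, 12 for active against dormant and 1 for active against reactivating. The lower ones numbered 3 for reactivating against dormant, 2 for active against reactivating and 4 for active against dormant. Both settings change which unigenes are counted, and why the counts moved was not tested. Of the 9 measured outside the members, 4 were higher and 4 lower for active against dormant. The 90 log2 ratios of members recomputed with either scaling or with 1 read added kept their sign and stayed inside the main counting interval. Scaling shifted all log2 ratios by at most 0.09. Of the recomputed counts for the other lists, a setting added after seeing the data, 241 stayed within 1.5 times and 53 did not. The members' percent of reads was recomputed with either scaling and with unigenes of at least 500 bases. Of these values 5 fell outside the main interval and 4 stayed inside it. Without Unigene49670 the summed fold was 2.93 in place of 5.60 for active against dormant. Dormant values of 1 to 24 reads limit the precision of the largest ratios. No paired analysis was possible because each stage has 1 library.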

Other observations

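In the reactivating and active libraries, reads of Unigene47961 were spread less evenly than those of the other members. With 144 reads they covered 85.0% of its 392 bases in the reactivating library, and with 150 reads 67.9% in the active library. Unigene45005, with 98 reads in the active library, was covered to 97.6% of its 333 bases. In the dormant library the 3 reads of Unigene47961 covered 37.5%, and the single read of Unigene47139 13.1%, while the 13 reads of Unigene45005 covered 97.3%.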
